A study of Mus musculus with 6 samples.

Results

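P19 aggregates that express AICD were set against aggregates that carry the empty vector, at the end of 4 days of aggregation with retinoic acid. The pair is 2 of the 6 arrays of the study, chosen by title and not by any measured value. P19 is a mouse embryonal carcinoma line, and AICD is the intracellular domain of APP, the amyloid precursor protein, set free by gamma-secretase. The AICD line expresses this fragment, the vector line carries pCDNA without an insert, and both met 5e-07 M all-trans retinoic acid. Each line was also sampled undifferentiated and, 2 days after the aggregates were replated, in the differentiated state. With 1 array for each line and state, no difference below has a replicate check, and no p-value is given. The labels do not state whether a line is 1 clone or a pool, which promoter drove AICD or from which species its sequence came. The expression of AICD and other differences between the lines therefore cannot be told apart.

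Retinoic acid turns P19 aggregates from a pluripotent to a neural program: its receptors act on Hox genes and neural regulators, while Pou5f1 and its network are shut down. In the neural tube, Notch signals keep progenitors from becoming neurons through Hes and Hey repressors, Wnt and BMP signals from the roof give dorsal identity, and Hedgehog signals give ventral identity. Values below are normalized log2 signals, the log2 of the processed spot signal minus the log2 of the array's 75th percentile, so a level below 0 lies under that percentile and a difference of 1 is 2-fold. Differences are AICD minus vector.

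Of 17165 genes with a symbol and a value, 11988 were well above background on both aggregated arrays. The signal was higher by 2-fold or more in AICD aggregates for 505 of them (4.21%) and lower by 2-fold or more for 374 (3.12%). By 10-fold or more, 33 genes (0.275%) were higher and 24 (0.2%) lower. The median difference over all genes was 0.026, and Pearson's r between the arrays was 0.977 across genes, which are not independent replicates. Genes above background on 1 array alone have only a bound: of 12837 genes above background on either array, 151 (1.18%) were at least 2-fold higher by their bound and 146 (1.14%) at least 2-fold lower. On the AICD and vector arrays, 62.0% and 64.3% of spots were well above background, the 75th percentiles were 607 and 787, and none was saturated. Replicate spots of a probe had a median SD of 0.0717 on the AICD array and 0.0765 on the vector array, a spread within an array and not between cultures. In 182 of 192 genes past 2-fold with several measured probes, all probes had the same sign. All probes were also past 2-fold in that direction in 131 of the 192.

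**Figure D1:**
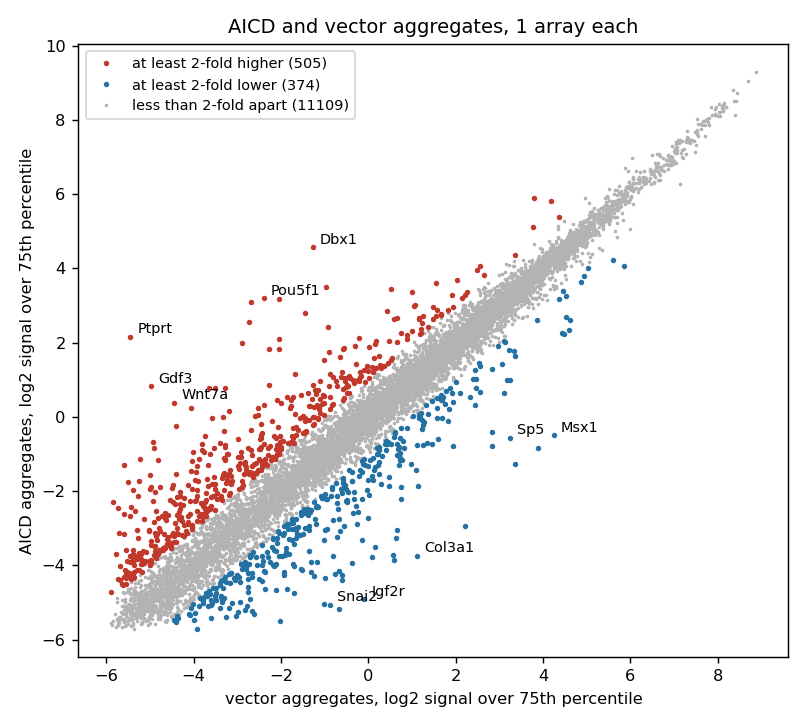
Normalized log2 signal of each gene in AICD aggregates (vertical axis) against vector aggregates (horizontal axis), 1 array each, for the 11988 genes well above background on both. Red points are the 505 genes higher by 2-fold or more and blue points the 374 lower by 2-fold or more. Ptprt and Dbx1 lie farthest above the diagonal, with Col3a1, Igf2r and Msx1 far below it.

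Both samples carried neural markers. All 11 neuronal and all 7 neural progenitor markers were above background on both arrays. In undifferentiated cells of each line, 10 of the 11 and all 7 were too, so this call alone does not mark a neural state. Summed as multiples of the 75th percentile, neuronal markers reached 92.0 in AICD and 57.1 in vector aggregates, and progenitor markers 74.96 in AICD and 122 in vector aggregates. In undifferentiated cells the neuronal sums were 18.3 in AICD and 17.6 in vector cells, and the progenitor sums 30.6 and 33.8. Of 6 pluripotency markers with a probe, 5 were above background on each array, and their sum was 11.3 in AICD and 0.609 in vector aggregates. Such a sum is on the linear scale, so a single bright gene can dominate it. Pou5f1 had a difference of 5.59, while the median over the longer pluripotency list was 0.27. Mesenchymal markers went the other way, with 4 of 8 above background and a sum of 1.14 in AICD aggregates, against 8 of 8 and 6.24 in vector aggregates. Gfap and Aqp4 of astrocytes, Pecam1, Cdh5, Gata1 and Ptprc of endothelium and blood, Afp and Ttr of endoderm, Tnnt2 and Myh6 of heart muscle and all 4 germ cell markers were not well above background on either array. On each array, however, 3 of 5 glial, 5 of 8 endoderm, 3 of 5 cardiac and muscle and 2 of 6 endothelium and blood markers were. In that order their sums were 9.03, 1.12, 0.845 and 0.0818 in AICD aggregates. In vector aggregates they were 7.41, 0.979, 2.04 and 0.154. In bulk RNA, fewer cells of a type and less RNA per cell cannot be told apart.

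The largest differences among genes measured on both arrays spanned receptors, patterning factors and lipid proteins. Ptprt, a receptor tyrosine phosphatase of neurons, stood at 2.15 in AICD and -5.45 in vector aggregates, 194-fold higher. Dbx1, the homeobox factor of intermediate neural tube progenitors, stood at 4.56 in AICD and -1.27 in vector aggregates, 57.3-fold higher. Ccn2, a secreted matrix-associated growth regulator, stood at 3.09 in AICD and -2.68 in vector aggregates, 54.4-fold higher. The signal of each was thus low in vector aggregates and among the brighter ones in AICD aggregates. Plin2, which coats lipid droplets, was 38.9-fold higher, and Gramd1a, a sterol carrier of membrane contact sites, 37.4-fold higher. Ptprt, Ccn2, Plin2 and Gramd1a were already higher in undifferentiated AICD cells, by 9.82, 6.47, 5.45 and 4.27 log2 units. The remaining 10 of the 15 highest were Gdf3, Pou5f1, Nr0b1, Wnt7a, Tagln3, Igfbpl1, Pdzk1, Nts, Cidea and Ctsc, with differences of 5.79 down to 4.26. Nts, the neuropeptide neurotensin, was 19.6-fold higher in aggregates and had a difference of 0.40 after replating.

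At the low end, Syce2, a synaptonemal complex protein, stood at -2.93 in AICD and 2.21 in vector aggregates, 35.2-fold lower. In the germline list that holds Syce2, the lowest difference was -6.61 in undifferentiated and -2.68 in differentiated cells. Igf2r, the receptor that carries Igf2 to lysosomes, stood at -4.91 in AICD and -0.10 in vector aggregates, 28.2-fold lower. Its difference was near that size in undifferentiated (-4.59) and differentiated cells (-5.72). Slc16a3, a lactate exporter, was 26.4-fold lower, and Csf2ra, a cytokine receptor chain, had a difference of -4.64. Next came Dmrta1, Col14a1, Pcdh10, Tmem141, Epha3 and Cpne8, with differences of -4.51 to -3.77, and Col3a1, Msx1, Snai2, Nkx2-5 and Sp5, described below.

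Some genes were above background on 1 array alone. In AICD aggregates these were led by Alkbh3, a demethylase of alkylated nucleic acids, at least 79.5-fold higher, Cpb1, a carboxypeptidase, at least 66.5-fold higher, and Nr2e1, the neural stem cell receptor Tlx, at least 63.7-fold higher. Esx1, Myh8, Sp8, Gypc and Hoxb13 followed, from at least 54.2-fold to at least 42.6-fold higher. In vector aggregates they were led by Hes5, at least 3041-fold lower in AICD aggregates, Slc10a6, at least 207-fold lower, and Gdf10 and Dtx1, at least 75.6-fold and at least 74.4-fold lower. Anxa2, Dmrt2, Zrsr1 and Gc followed, from at least 63.3-fold to at least 38.0-fold lower.

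Pluripotency genes divided. Of 37 listed, 26 were above background on both arrays, 9 of them higher by 2-fold or more, where 4.21% of all genes were. None was lower by as much. The median difference was 0.27, or 0.48 with the mean over the probes of each gene. Pou5f1, the POU factor Oct4, stood at 3.19 in AICD and -2.40 in vector aggregates, 48.0-fold higher. In undifferentiated cells it had stood at 6.48 in AICD and 6.37 in vector cells, so the difference was seen after retinoic acid and not before it. Nr0b1 (Dax1), a nuclear receptor co-regulator that interacts with Oct4, stood at 2.00 in AICD and -2.90 in vector aggregates, 29.8-fold higher, with a difference of -0.96 in undifferentiated cells. Otx2, a factor of primed pluripotent cells and of forebrain, stood at -0.23 in AICD and -4.39 in vector aggregates, 17.9-fold higher, with a difference of -0.04 beforehand. The difference lasted in all 3 after replating, at 3.88, 4.30 and 4.07.

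Sall4, a zinc finger partner of Oct4, had a difference of 1.64, but its second probe gave 0.24. The methyltransferase Dnmt3b was 3.01-fold higher, and the phosphatase Alpl 2.56-fold higher. Others did not differ by 2-fold: Sox2, shared by pluripotent and neural cells, had a difference of -0.47, Klf2 0.05, Utf1 -0.03, Dppa5a -0.36 and Lin28a, an RNA-binding regulator, 0.68. Dppa4 was above background in vector aggregates alone, at least 3.15-fold lower in AICD aggregates.

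The promoter window of Pou5f1 is shown because its proximal hormone response element is a known meeting point of retinoid and other nuclear receptors. It is the first of 2 windows listed for the gene (RefSeq, GRCm38.p6, chr17:35505782-35506081, + strand), reaching from 250 bases before to 50 after the start site. Capitals mark AGGTCA, the hexamer bound by such receptors, which begins 33 bases before the start site. AGGTCA occurred on either strand in 16.3% of all 32851 promoter windows, and a match is a description and not a binding site.
Pou5f1: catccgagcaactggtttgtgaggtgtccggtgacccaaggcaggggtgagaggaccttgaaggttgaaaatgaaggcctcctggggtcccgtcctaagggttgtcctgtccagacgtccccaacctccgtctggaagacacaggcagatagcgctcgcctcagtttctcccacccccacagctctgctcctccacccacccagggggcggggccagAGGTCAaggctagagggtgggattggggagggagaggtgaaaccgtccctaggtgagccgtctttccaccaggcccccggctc

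**Figure D2:**
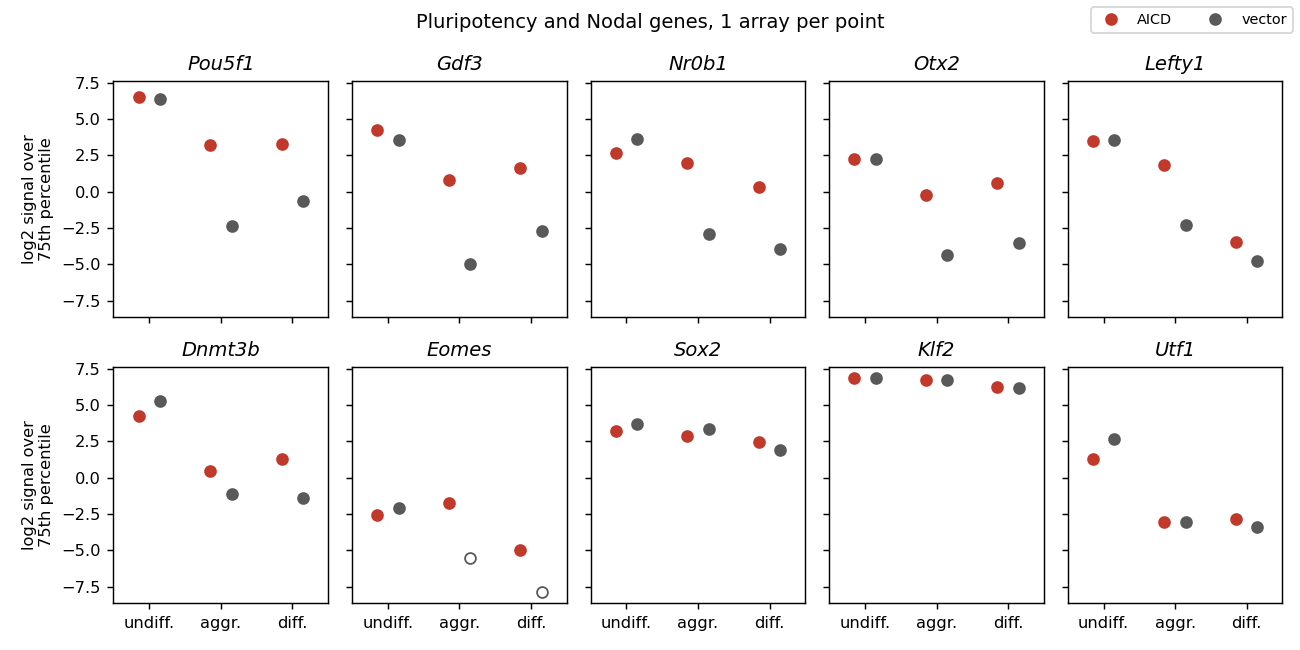
Normalized log2 signal of 10 pluripotency and Nodal pathway genes in the undifferentiated, aggregated and differentiated states, AICD (red, left) beside vector (grey, right), 1 array per point; open points were not well above background. Pou5f1, Gdf3, Nr0b1, Otx2 and Lefty1 have differences of -0.96 to 0.74 in undifferentiated cells and of 4.12 to 5.79 in aggregates, while Sox2, Klf2 and Utf1 differ by -0.47 to 0.05 there.

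Some genes of the Nodal pathway were also higher, while Nodal itself had no probe with a symbol. Nodal signalling, in which the ligand Gdf3 and the co-receptor Tdgf1 take part and which Lefty proteins restrain, maintains primed pluripotent cells and induces mesendoderm. Of the 13 members above background on both arrays, 5 were higher by 2-fold or more, where 4.21% of all genes were. None was lower by as much. Gdf3 and Tdgf1 were among those higher and are also counted in the pluripotency list. The median was 0.51, and 0.27 over members above background on all 6 arrays. Gdf3 stood at 0.82 in AICD and -4.97 in vector aggregates, 55.3-fold higher. The antagonist Lefty1, itself induced by Nodal signals, stood at 1.84 in AICD and -2.28 in vector aggregates, 17.4-fold higher, against a difference of -0.11 in undifferentiated cells. Tdgf1 (Cripto) stood at -3.74 in AICD and -5.42 in vector aggregates, 3.21-fold higher. The mesendoderm factor Gsc was 3.28-fold higher. Eomes, another such factor, stood at -1.76 in AICD aggregates and was not well above background in vector aggregates, at least 13.7-fold higher. T (brachyury), an early mesoderm factor outside this list, was 5.00-fold higher, with differences of 0.46 before and 0.37 after the aggregated state. The transducers Smad2, Smad3 and Smad4 had differences of -0.20, -0.30 and -0.34.

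Dorsal neural tube genes were lower in AICD aggregates. Of 13 listed, 10 were above background on both arrays, 6 of them lower by 2-fold or more, where 3.12% of all genes were. None was higher by as much, and the median was -1.22. Msx1, a homeobox target of BMP and Wnt signals in the roof region, stood at -0.50 in AICD and 4.24 in vector aggregates, 26.7-fold lower, against a difference of -0.09 in undifferentiated cells. Msx3, its dorsal relative, stood at 0.64 in AICD and 3.10 in vector aggregates, 5.50-fold lower. Wnt1, a roof plate ligand, stood at -1.17 in AICD and 0.76 in vector aggregates, and Zic1, a dorsal zinc finger factor, at 4.05 in AICD and 5.86 in vector aggregates. Both were thus brighter in vector aggregates, 3.80-fold and 3.49-fold lower in AICD aggregates. The related Pax3, Pax7 and Zic2 had differences of -0.99, -1.18 and -1.27.

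Genes of other positions were not lower as a group. Besides Dbx1, the ventral factors Nkx6-1 and Nkx6-2 were 2.56-fold and 3.21-fold higher, and both were farther apart after replating, by 5.19 and 5.25. Olig1, a ventral and oligodendrocyte factor, was at least 4.66-fold lower. Of 13 measured subtype factors of postmitotic neurons, 6 were higher by 2-fold or more, where 4.21% of all genes were. None was lower by as much. Among the 6, Lhx9 of dorsal interneurons was 7.80-fold higher. Gata3 and Gata2 of ventral V2b interneurons were 5.97-fold and 5.20-fold, and Isl2 of motor neurons 3.83-fold higher. Gata3 and Gata2 were also higher before retinoic acid, by 3.96 and 2.75.

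Feedback genes of the Wnt pathway were lower as well. All 5 nuclear factors and feedback targets had negative differences, with a median of -1.83, where 46.7% of all genes had one. Sp5, a direct Wnt target, stood at -0.56 in AICD and 3.24 in vector aggregates, a difference of -3.80, and was not well above background in undifferentiated cells of either line. Axin2, a negative regulator induced by beta-catenin, stood at -0.10 in AICD and 1.82 in vector aggregates, 3.78-fold lower. Nkd1, another induced inhibitor, stood at 2.69 in AICD and 4.53 in vector aggregates, 3.57-fold lower. Lef1 and Tcf7, the DNA-binding partners of beta-catenin, had differences of -0.86 and -0.82. The ligands diverged: Wnt4 was 6.62-fold lower, while Wnt7a stood at 0.38 in AICD and -4.45 in vector aggregates, 28.4-fold higher, and Wnt7b was 3.95-fold higher. Wnt8a stood at -2.57 in AICD aggregates and was not well above background in vector aggregates. The secreted inhibitor Sfrp2 was 2.49-fold higher.

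The promoter window of Sp5 (RefSeq, GRCm38.p6, chr2:70474673-70474972, + strand) is shown because Sp5 had the largest difference among these feedback genes. Capitals mark CTTTGAT, the TCF/LEF motif, which begins 104 bases before the start site and occurred on either strand in 3.73% of all windows. No match was found in the windows of Axin2 and Nkd1.
Sp5: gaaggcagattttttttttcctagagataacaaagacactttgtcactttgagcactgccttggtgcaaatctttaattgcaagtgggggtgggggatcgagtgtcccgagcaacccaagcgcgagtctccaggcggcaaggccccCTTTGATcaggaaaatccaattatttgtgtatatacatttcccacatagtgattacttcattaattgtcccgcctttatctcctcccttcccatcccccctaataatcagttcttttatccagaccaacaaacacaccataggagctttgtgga

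The 4 BMP ligands above background on at least 1 array were lower. None of the 5 listed targets, Id1, Id2, Id3, Smad6 and Smad7, differed by 2-fold, where 4.21% of all genes were higher and 3.12% lower by as much. Msx1, a target of BMP and Wnt signals that was lower, is counted with the dorsal genes and not here. Bmp4 stood at -3.70 in AICD and -1.82 in vector aggregates, 3.69-fold lower, and Bmp7 at 2.61 in AICD and 3.87 in vector aggregates, 2.38-fold lower. Gdf10, a related ligand, stood at 0.50 in vector aggregates and was not well above background in AICD aggregates, and Bmp6 was at least 3.38-fold lower. The targets Id1, Id2, Id3 and Smad7 had differences of 0.10, 0.48, -0.21 and -0.14. Among antagonists, Nog was 2.06-fold lower and Fst at least 6.17-fold higher. In the Hedgehog pathway, 2 of 8 measured genes were lower by 2-fold or more, where 3.12% of all genes were. The co-receptor Cdon stood at 2.35 in AICD and 4.60 in vector aggregates, 4.76-fold lower, and the inhibitor Hhip was 2.44-fold lower, while the receptor and target Ptch1 had a difference of 0.48. The 3 FGF ligands measured on both arrays were higher, Fgf15 6.13-fold, Fgf5 2.85-fold and Fgf8 2.59-fold, with Fgf3 at least 2.17-fold higher. Their target Etv4 was 6.39-fold and Etv5 at least 2.81-fold higher, but Etv1 and Spry1 had differences of -0.52 and -0.49, and the receptor Fgfr4 was 2.81-fold lower.

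**Figure D3:**
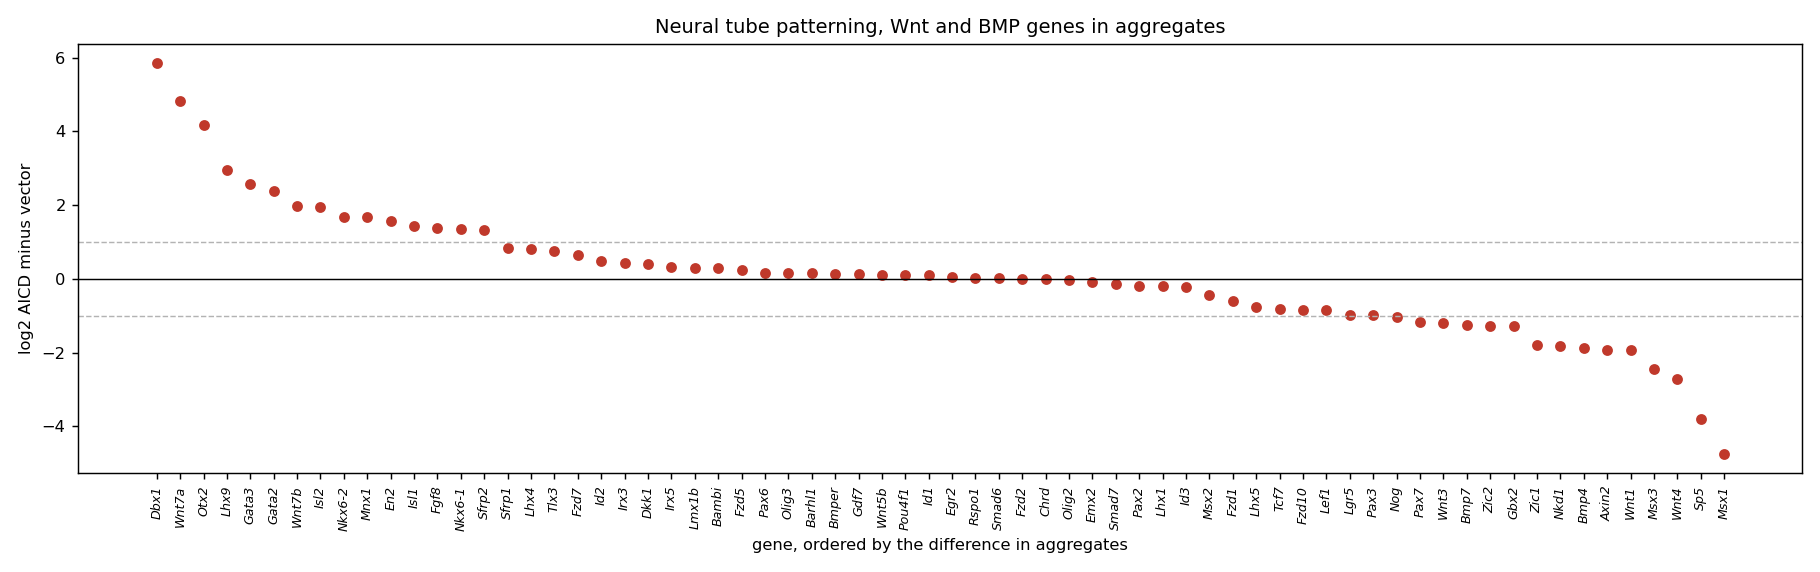
Log2 difference, AICD minus vector, in aggregates for neural tube patterning, Wnt and BMP pathway genes above background on both arrays, ordered by size, 1 array a side; dashed lines mark 2-fold. Dbx1 and Wnt7a lie highest (5.84 and 4.83), and Wnt4, Sp5 and Msx1 lowest (-2.73, -3.80 and -4.74).

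Notch pathway genes did not differ as a group, with a median of -0.14 over 26 measured genes. Hes5, the Notch-induced repressor of neural progenitors, stood at 5.94 in vector aggregates and was not well above background in AICD aggregates. It was also lower in undifferentiated (-3.13) and differentiated AICD cells (-11.28). Hey2 stood at -5.23 in AICD and -2.66 in vector aggregates, 5.96-fold lower, whereas Hey1 stood at 3.30 in AICD and 1.92 in vector aggregates, 2.59-fold higher. Hes1 was nearly level, at -0.83 in AICD and -0.75 in vector aggregates, so related targets differed in opposite directions or not at all. Dtx1, a Notch-binding ubiquitin ligase, stood at 0.48 in vector aggregates and was not well above background in AICD aggregates. Of the ligands, Jag1 was 3.74-fold higher and Jag2 2.08-fold lower, and the fringe glycosyltransferase Mfng was 2.47-fold higher. None of 7 measured receptors and nuclear partners differed by 2-fold, where 4.21% of all genes were higher and 3.12% lower. Rbpj, the DNA-binding partner of Notch, had a difference of -0.50.

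The windows of Hes5 (RefSeq, GRCm38.p6, chr4:154960673-154960972, + strand) and Hey2 (chr10:30842734-30843033, - strand) are shown because these Notch targets were lower. Capitals mark TGGGAA on either strand, the core bound by Rbpj, with 2 matches in each. The core occurred in 25.6% of all windows, and no match was found in that of Dtx1. The longer form CGTGGGAA, which overlaps the core, occurred in 0.734% of windows, that of Hey2 among them. Other longer forms were not counted: both cores in the Hes5 window lie within TGTGGGAA, read on either strand.
Hes5: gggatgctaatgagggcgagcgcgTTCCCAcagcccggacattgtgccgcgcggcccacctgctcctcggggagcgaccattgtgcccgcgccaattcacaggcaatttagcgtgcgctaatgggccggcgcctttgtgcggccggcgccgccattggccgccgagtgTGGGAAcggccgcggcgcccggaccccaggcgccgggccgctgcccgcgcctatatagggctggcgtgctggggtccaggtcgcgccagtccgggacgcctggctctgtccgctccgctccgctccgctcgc
Hey2: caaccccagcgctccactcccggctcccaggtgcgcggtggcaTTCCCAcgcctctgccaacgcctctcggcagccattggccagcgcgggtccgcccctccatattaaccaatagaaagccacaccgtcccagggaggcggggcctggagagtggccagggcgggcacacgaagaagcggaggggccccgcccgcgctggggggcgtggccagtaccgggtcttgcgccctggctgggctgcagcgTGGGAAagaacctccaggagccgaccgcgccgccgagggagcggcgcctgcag

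Genes of neuronal structure were mostly higher in AICD aggregates. Of 35 listed, 32 were above background on both arrays, and 26 had a positive difference, where 53.3% of all genes had one. By 2-fold or more, 8 were higher and 1 lower, where 4.21% and 3.12% of all genes were. The median was 0.75. Tagln3, a neuronal actin-binding protein, stood at 3.51 in AICD and -0.96 in vector aggregates, 22.2-fold higher. Gap43 of growth cones stood at 0.63 in AICD and -1.19 in vector aggregates, 3.53-fold higher, and the tubulin regulators Stmn3 and Stmn2 were 2.81-fold and 2.65-fold higher. The adhesion proteins Cntn1 and Cntn2 were 3.90-fold and 3.16-fold higher. The adhesion protein Chl1 was above background in vector aggregates alone, at least 2.74-fold lower. Rbfox3, the NeuN splicing factor, was 4.10-fold lower, and its second probe gave -1.87. After replating the median of the list was -0.47, and Gap43, Stmn3, Stmn2, Cntn1 and Cntn2 had differences of -0.40, -0.55, -0.34, -0.79 and -0.78. Tagln3 was still higher then, by 6.31.

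Of 27 measured synapse genes, 7 were higher by 2-fold or more, where 4.21% of all genes were, and none lower by as much. The median was 0.30 in aggregates and -0.44 after replating. Cplx1, a regulator of vesicle fusion, stood at -1.94 in AICD and -4.99 in vector aggregates, 8.32-fold higher, with differences of -0.27 before and -0.32 after. Syp of synaptic vesicles and Chga of dense-core granules were 3.11-fold and 2.82-fold higher. Syt1, the calcium sensor of release, was 3.32-fold higher by its brightest probe, but its 4 measured probes ran from -1.18 to 1.81.

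**Figure D4:**
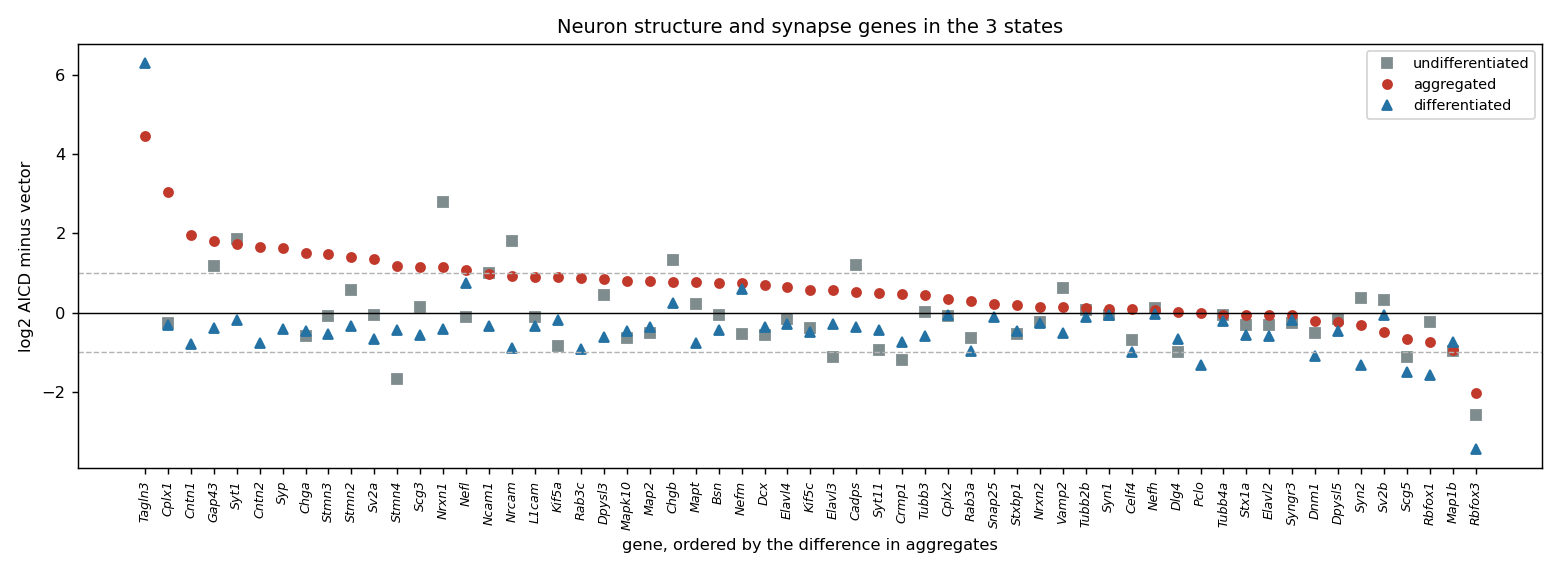
Log2 difference, AICD minus vector, in the undifferentiated (squares), aggregated (circles) and differentiated (triangles) states for neuron structure and synapse genes above background on both aggregated arrays, 1 array a side; a square is left out where an undifferentiated array was not well above background. Most circles lie above 0 and most triangles below it, and Tagln3 (4.47 in aggregates) and Rbfox3 (-2.04) lie at the ends.

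Regulators of neuron formation differed gene by gene. The proneural factors Neurog1 and Neurog2 had differences of -0.01 and -0.35. Of factors that act in later neurons, Neurod1 was 3.80-fold and Bhlhe22 11.7-fold higher, Neurod4 at least 8.09-fold higher, and Nhlh2 at least 17.7-fold lower. All 8 measured members of the later group that holds Ebf, Myt1 and related factors had positive differences, with St18, Myt1l and Ebf1 past 2-fold. Among progenitor factors, Lhx2 was 8.72-fold higher, while Sox1, Pax6 and the filament protein Nes had differences of -0.05, 0.16 and 0.11.

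Transmitter genes did not share a direction. Slc32a1, the vesicular GABA and glycine transporter, stood at -3.05 in AICD and 0.67 in vector aggregates, 13.2-fold lower. The glycine transporter Slc6a5 was at least 5.68-fold and the GABA-synthesizing enzyme Gad1 at least 4.30-fold lower. Slc17a6, the vesicular glutamate transporter of early neurons, stood at -0.98 in AICD aggregates and was not well above background in vector aggregates, at least 31.1-fold higher. After replating it stood at 2.14 in AICD and 2.51 in vector cells, so the lines were close by then. The related transporter Slc17a7 was 2.40-fold lower in aggregates. The nicotinic receptor subunits Chrna3 and Chrna4 were at least 14.9-fold and 4.10-fold higher.

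Hox genes, the classic retinoic acid targets, did not differ in one direction. Of 24 genes measured on both arrays, Cdx2 included, 4 were higher and 5 lower by 2-fold or more. The shares over all genes were 4.21% and 3.12%. The median of the list was -0.29 and became 0.20 without the filter on dim probes. In the anterior paralog groups the median was -0.61: Hoxd3, Hoxd1 and Hoxb3 were 3.35-fold, 3.18-fold and 2.17-fold lower. Further back, Hoxc5 was 4.03-fold and Hoxa9 2.53-fold lower, and Hoxa7, Hoxd9 and Hoxc9 were 2.40-fold, 2.77-fold and 4.64-fold higher. Hoxb13 was already 6.28 log2 units higher before retinoic acid. Cdx2, which activates posterior Hox genes, stood at -1.45 in AICD and -4.06 in vector aggregates, 6.11-fold higher. Of 5 measured retinoid receptors, only Rxrg passed 2-fold, at 2.20-fold higher, while Rara, Rarb and Rxra had differences of -0.66, -0.56 and 0.25. Cyp26a1, the induced enzyme that degrades retinoic acid, was 2.72-fold lower and its cytosolic carrier Crabp1 2.40-fold higher. The retinaldehyde dehydrogenase Aldh1a1 and the related Aldh1a7 were 4.90-fold and 16.6-fold higher, and Aldh1a2 and the retinol carrier Rbp4 were at least 5.47-fold and at least 20.0-fold lower.

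**Figure D5:**
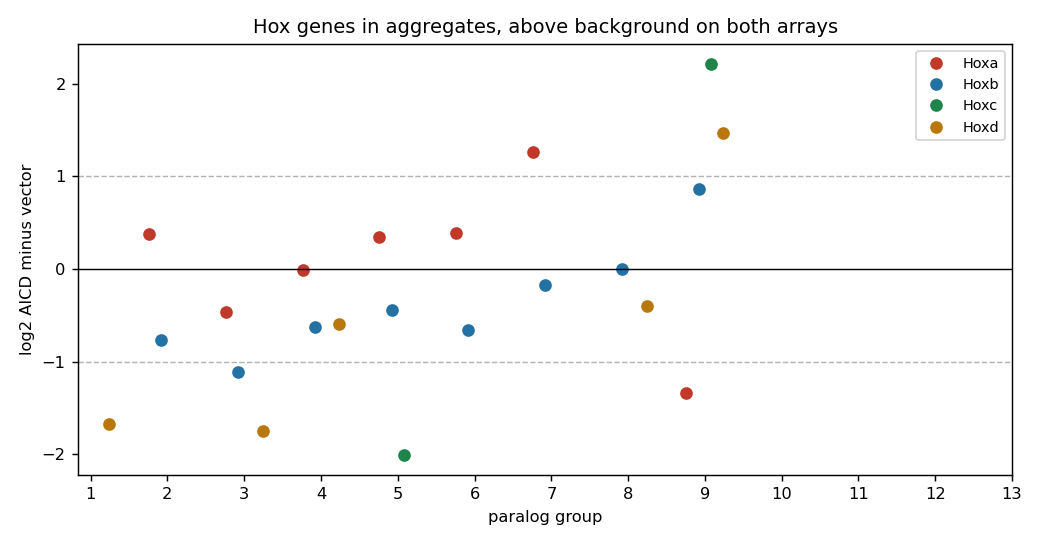
Log2 difference, AICD minus vector, in aggregates for Hox genes above background on both arrays, by paralog group (horizontal axis) and cluster (colour), 1 array a side; dashed lines mark 2-fold. Hoxd1, Hoxd3 and Hoxc5 lie lowest (-1.67, -1.74 and -2.01) and Hoxc9 highest (2.22).

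Some fibrillar collagens and mesenchymal regulators were lower, though not their lists as a whole. Of 7 measured fibrillar collagens and partners, 3 were lower and 1 higher by 2-fold or more, where 3.12% and 4.21% of all genes were. Their median was -0.21. Of 13 measured mesenchyme genes, 3 were lower by 2-fold or more, where 3.12% of all genes were, and none higher by as much. Their median was -0.29. Col3a1 stood at -3.74 in AICD and 1.104 in vector aggregates, 28.8-fold lower, although it had been higher by 2.03 in undifferentiated AICD cells. Col1a1 and Col1a2, the chains of type I collagen, were 6.51-fold and 4.14-fold lower, and after replating Col1a2 stood at -1.39 in AICD and 3.59 in vector cells. Col6a1, by contrast, was 2.83-fold higher. Of 30 measured matrix genes, 8 were lower and 2 higher by 2-fold or more, where 3.12% and 4.21% of all genes were. Nid1 of basement membranes was at least 34.5-fold and the proteoglycan Lum at least 10.3-fold lower. Snai2, a factor of epithelial to mesenchymal transition and of neural crest, stood at -5.06 in AICD and -0.88 in vector aggregates, 18.1-fold lower. Its difference was -2.77 in undifferentiated and -5.28 in differentiated cells. Prrx1 was 8.20-fold lower, and Twist1, another mesenchymal factor, had a difference of -2.63. The surface proteins Pdgfrb, Thy1 and Cd44 were at least 32.6-fold, at least 11.5-fold and at least 7.17-fold lower, and Nt5e was at least 5.03-fold higher, while the 3 measured on both arrays, Pdgfra, Cdh2 and Cdh11, had differences of 0.30, 0.15 and -0.29. Of 13 measured crest genes, 4 were lower and 3 higher by 2-fold or more, where 3.12% and 4.21% of all genes were. Besides Snai2, Ets1, Tfap2b and Ednrb were 3.55-fold, 3.37-fold and 5.67-fold lower, and Sox8, Foxd3 and Dct were 2.87-fold, 2.27-fold and 2.44-fold higher. The cardiac and muscle factors were divided, with 2 of 4 measured members higher by 2-fold or more and 1 lower, where 4.21% and 3.12% of all genes were. Isl1 and Mef2c were 2.72-fold and 2.08-fold higher, but under 2-fold with normexp, at 0.698 and 0.579. Nkx2-5 and Tbx5 were 14.9-fold and at least 8.41-fold lower. Nkx2-5 had a difference of -4.93 before retinoic acid.

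Guidance, adhesion and channel genes differed in both directions. Of 31 measured axon guidance genes, 6 were higher and 4 lower by 2-fold or more, where 4.21% and 3.12% of all genes were. The receptor Robo2 and the cue Ntn1 were 3.89-fold and 3.31-fold higher. The cue Slit2, the netrin receptor Dcc and the ephrin receptor Epha3 were 3.31-fold, 2.89-fold and 14.6-fold lower. Protocadherins Pcdh10 and Pcdh17 were 19.4-fold and 3.42-fold lower, and Cdh10 3.23-fold higher. Among ion channels, 4 of 12 were higher by 2-fold or more, where 4.21% of all genes were. The potassium channel subunit Kcns3 led them at 16.7-fold. In the Ptpr family, Ptpre was 7.23-fold higher and Ptpru 3.18-fold lower beside Ptprt.

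Among cell cycle genes, inhibitors alone held members past 2-fold. None of 23 cyclin, kinase and mitosis genes and none of 11 replication genes differed by 2-fold. Over all genes, 4.21% were higher and 3.12% lower by as much, so lists of this size can hold none without standing apart. Of the inhibitors, Cdkn2a, which encodes p16 and Arf, was at least 28.0-fold, Cdkn1c 6.64-fold, Cdkn2b 3.40-fold and Cdkn1a 2.54-fold higher. In undifferentiated cells all 8 listed inhibitors already had positive differences, with a median of 0.73. After replating 5 of 7 measured inhibitors had negative ones, with a median of -0.20. Pmaip1 (Noxa), a p53 target, was at least 9.37-fold higher, while Trp53 had a difference of -0.08. All 8 measured IGF ligands, receptors and binding proteins had negative differences, where 46.7% of all genes had one, from -4.82 for Igf2r to -0.01 for Igfbp5. Igf2 stood at 3.16 in AICD and 4.09 in vector aggregates, and after replating at 0.97 in AICD and 5.61 in vector cells. In the list of YAP targets and partners, 7 of 9 measured genes had negative differences, where 46.7% of all genes had one. Ccn2 was higher, while Ccn1 and Ajuba had differences of -0.73 and -1.72.

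Some genes of hypoxia and of the interferon response were lower. Of 21 hypoxia and glycolysis genes, 17 had negative differences, where 46.7% of all genes had one, and 3 were lower by 2-fold or more, where 3.12% were. Ndrg1, induced by low oxygen, stood at 2.24 in AICD and 4.49 in vector aggregates, 4.76-fold lower, and Ankrd37, Pdk1 and Bnip3 had differences of -1.07, -0.91 and -0.90. The glycolytic enzyme Pfkp had a difference of -1.66, but its second probe gave 0.36. Of 16 measured interferon response genes, 5 were lower by 2-fold or more, where 3.12% of all genes were. These were the immunoproteasome subunits Psmb10 (4.58-fold) and Psmb9 (2.84-fold), the antiviral membrane proteins Bst2 (2.91-fold) and Ifitm2 (2.65-fold) and the antigen-presenting H2-K1 (2.08-fold). The heat shock genes Hspa1a and Hspa1b were 3.59-fold and 3.34-fold higher, and the chaperone co-factor Sil1 was 4.61-fold lower in aggregates, as before (-2.30) and after (-2.19). In lipid handling, no sterol synthesis or uptake gene of 13 measured differed by 2-fold, where 4.21% of all genes were higher and 3.12% lower. The exporter Abca1 was 2.64-fold lower. The lysosomal protease Ctsc had a difference of 4.26, while the median of 19 lysosome genes was 0.16. None of 24 ribosomal protein genes and none of 12 reference genes differed by 2-fold, with medians of 0.18 and -0.06. The first of these became 0.00339 with quantile normalization.

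App itself stood at 0.93 in AICD and 1.42 in vector aggregates, a difference of -0.49. No source used here states whether its probe lies in the part that encodes AICD, so App does not check the labels. Aplp1 and Aplp2, its relatives, had differences of 0.02 and 0.07, and none of 8 measured secretase genes differed by 2-fold. From a list of 19 genes described elsewhere as AICD-responsive, 17 were above background on both arrays, 1 higher by 2-fold or more and none lower by as much, where 4.21% of all genes were higher and 3.12% lower. One more, Slc17a6, was higher by the bound given above. The gene measured on both arrays was Egfr, a growth factor receptor, at -0.86 in AICD and -2.01 in vector aggregates. Its difference was 1.85 before and 1.28 after the aggregated state, so it was not confined to aggregates. Mme (neprilysin), which degrades amyloid-beta, was not well above background in AICD aggregates by its brighter probe, and its second probe, measured on both arrays, gave -0.81. Bace1, Gsk3b, Acta2, Lrp1 and Igfbp3 had differences of 0.13, -0.23, -0.08, 0.39 and -0.85.

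Part of the difference was shared with the other states. Among 11481 genes above background on all 6 arrays, 419 were higher by 2-fold or more in AICD aggregates. Of these, 137 were also higher by as much in undifferentiated AICD cells, 32.7% of the aggregate genes and 33.4% of the 410 undifferentiated ones, where 3.57% of all genes were. With the differentiated state, 208 were shared, 49.6% of the aggregate genes and 40.7% of the 511 differentiated ones, where 4.45% of all genes were. Among 297 lower genes, 109 were shared with the undifferentiated state (36.7% of the 297, where 3.56% of all genes were lower) and 132 with the differentiated state (44.4%, where 2.95% were). Past 2-fold in aggregates alone were 156 of the higher and 132 of the lower genes, and the 3 comparisons share no array.

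By the rule of 10-fold or more in aggregates and under 1.5-fold in the other states, Nacad alone was named. It stood at -1.96 in AICD and -5.40 in vector aggregates, had a difference of 0.42 after replating and was not well above background in undifferentiated cells of either line. With normexp its difference in aggregates was 1.59, under 10-fold. At 4-fold or more, Cplx1, Cpne6, Dagla, Phactr3 and T were higher and Ddn, Gbe1, Ndrg1, Nfat5 and Rab38 lower in aggregates, with under 1.5-fold in the other states; these names were chosen after their values were seen. With normexp, Gbe1, Ndrg1 and Nfat5 remained past 4-fold, with differences of -2.17, -2.29 and -2.33, and the other 7 were between 2-fold and 4-fold.

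Background correction set the size of many differences. With normexp in place of the scanner's subtraction, 158 of 164 named genes past 2-fold lay closer to 0, 77 folds moved by over 1.5 times and 40 fell under 2-fold. The difference of Ptprt became 5.39, that of Gdf3 4.13 and that of Wnt7a 3.29, all genes that were dim in vector aggregates. Under 2-fold by normexp, with their direction kept, were Tdgf1, Gsc, Fgf5, Fgfr4, Myt1l, Ebf1, Jag2, Hey2, Hoxd9, Col1a1, Col6a1, Ets1, Sox8, Nog, Hhip, Cdkn1a, Hspa1a, Psmb9, Robo2, Pcdh17, Ptpru, Rxrg, Slc17a7, Isl1, Mef2c, Dct, Foxd3, Pax7, Zic2, Bst2 and Egfr, from those named above as past it. Nog and Slc17a7 were the closest to 0, both at -0.40. With the mean over probes, Sall4, Hoxb3, Pfkp, H2-K1 and Egfr were under 2-fold, and with quantile normalization Nog was.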

How the data were processed

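RNA of 6 samples of mouse P19 lines was measured on 6 single-colour Agilent arrays; only the 2 aggregated arrays enter the comparison, and the other 4 give context. Per the file headers, the authors read the scans with version 10.1.1.1 of Agilent's Feature Extraction software. The deposited processed signal is an intensity after background subtraction within the array, not scaled between arrays. The authors' series table (6 columns of per-sample values) was not used. The 4 aggregated and differentiated arrays share 1 slide and the undifferentiated pair lies on another, so slide and state cannot be told apart, while both lines of a state share a slide.

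Outlier-flagged spots and controls were left out, spots of a probe averaged, and log2 taken minus the log2 of the array's 75th percentile (Python 3.11.15, pandas 2.3.3). Probes were named through RefSeq accessions (GRCm38.p6): 24844 of 41174 probes received a symbol, and the probe with the highest mean over 6 arrays stood for a gene. A gene counts as measured where it was well above background on both arrays. Otherwise the bound is the bright signal over the higher of the dim probe's own signal and the lowest signal well above background on the dim array, written as at least N-fold. The normexp alternative used limma 3.58.1 in R 4.3.3, offset 50, on the median spot signal. With 1 array a side, sizes are given without a test, and the number of arrays limits the precision. The counting code was run on a simulated pair of arrays with spot noise and known changes well past the 2-fold cut. That run checked the code alone, and not the spread between cultures, dim probes or background correction.

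The members, the 41 gene lists and the rule for named genes were chosen with earlier results of these data known. The rule names the 15 highest and 15 lowest differences, 8 bounds per direction, up to 4 members per role of a list, App and earlier reported responders, and up to 10 genes that differed 10-fold in aggregates and under 1.5-fold elsewhere. The remaining names were picked with their values in view. A few genes enter the counts but are not reported here by name, nor drawn.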

Additional observations from a re-analysis of the deposited data

Results flagged for a closer look

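The genes below were at least 2-fold higher in AICD samples in one state and at least 2-fold lower in another, and the list medians lay more than 0.3 log2 units to either side of 0. Values are AICD minus vector with 1 array a side, and the difference between states was not tested. Under alternatives the aggregated difference fell below 2-fold for Fgf5 (0.82), Rxrg (0.75), Thbs1 (-0.83), Kdr (-0.42) and Hhip (-0.97) with normexp, and for H2-K1 (-0.71) and Sema6a (0.83) with the mean over probes. Against undifferentiated cells, whose arrays lie on another slide, these were Col3a1 (-4.85 in aggregates and 2.03 before retinoic acid), Fgf5 (1.51 in aggregates and -4.05 before retinoic acid), Mfng (1.31 in aggregates and -1.75 before retinoic acid), Rxrg (1.14 in aggregates and -1.38 before retinoic acid), Thbs1 (-2.19 in aggregates and 1.90 before retinoic acid), Thbs2 (-1.61 in aggregates and 3.38 before retinoic acid), Kdr (-1.31 in aggregates and 1.29 before retinoic acid), Fgf15 (2.62 in aggregates and -1.40 before retinoic acid), Sema6a (1.57 in aggregates and -1.78 before retinoic acid), median of CCN and YAP (-0.51 in aggregates and 0.91 before retinoic acid). Against differentiated cells, on the slide of the aggregates, they were Thbs1 (-2.19 in aggregates and 2.26 after replating), Hhip (-1.29 in aggregates and 1.19 after replating), Cdkn1c (2.73 in aggregates and -1.11 after replating), H2-K1 (-1.06 in aggregates and 1.02 after replating), median of proneural factors (0.33 in aggregates and -0.47 after replating), median of neuron structure (0.75 in aggregates and -0.47 after replating).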

How the results depend on the processing

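No paired analysis was possible because the aggregated comparison has 1 array a side and the labels give no replicate numbers to pair. The 505 higher and 374 lower genes became 298 and 197 with normexp, and 962 and 948 without the filter on dim probes. The 33 and 24 past 10-fold became 15 and 7 with normexp, and 97 and 77 without that filter. Requiring all 6 arrays above background, with fewer genes tested, left 15 genes at least 10-fold lower. Quantile normalization, the mean over probes and keeping outlier-flagged spots left these counts within 1.5 times; the last was added after seeing the data, since leaving such spots out became the main setting. The share of higher genes among those past 2-fold was 57.5%, and 50.4% to 60.2% under the alternatives. List medians were compared with the spread of a difference between replicate spots, 0.105. With mean over probes of a gene, medians moved by more than that to 0.4801 for pluripotency, -0.1342 for endoderm. With no filter on dim probes, medians moved by more than that to 0.3884 for Nodal pathway, 0.1543 for germline (sign turned), 0.1997 for proneural factors, 0.1783 for transmitter systems, 0.202 for Hox genes (sign turned), -0.04166 for retinoic acid (sign turned), -0.2688 for neural crest, -0.3671 for endothelium and blood, -0.1229 for Wnt pathway, -0.2092 for BMP pathway, 0.1544 for FGF pathway, -0.1472 for interferon response, 0.5207 for axon guidance, -0.08006 for ion channels (sign turned), -0.8395 for cadherins. With well above background on all 6 arrays, medians moved by more than that to 0.2655 for Nodal pathway, 0.1104 for proneural factors, 0.06331 for mesoderm and muscle, 0.1416 for endoderm, -0.2952 for Wnt pathway, 0.4985 for axon guidance, -0.0121 for ion channels (sign turned), 0.1946 for receptor tyrosine phosphatases. With normexp background correction, medians moved by more than that to 0.1195 for germline (sign turned), 0.1065 for endoderm, 0.1098 for neural crest, 0.1959 for endothelium and blood (sign turned), -0.4503 for Wnt pathway, -0.1475 for interferon response, 0.2797 for axon guidance. With members at their bound, medians moved by more than that to 0.02691 for retinoic acid, -0.5901 for endoderm, -0.4647 for Wnt pathway, -0.1351 for BMP pathway, -0.6012 for interferon response, 0.3261 for axon guidance, -0.0121 for ion channels (sign turned), -0.5878 for cadherins. With quantile normalization, medians moved by more than that to 0.003387 for ribosomal proteins. Members at their bound was an alternative added after seeing the data. Single genes whose sign turned were Nanos3 to 0.07676 (normexp background correction), Msi2 to -0.002434 (mean over probes of a gene), Maml3 to 0.199 (normexp background correction), Rtp4 to 0.02152 (normexp background correction), Tagln to 0.01224 (mean over probes of a gene), each under 2-fold in the main setting. With normexp, 40 differences of named genes fell below 2-fold. Except where fewer or more genes enter, the cause was not tested.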
